A study of Gossypium hirsutum with 9 samples.

Results

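Gibberellin and brassinosteroid genes were examined in cotton fibres, hairs that each grow out of 1 cell of the seed surface, while they were still elongating. They were chosen by the gene symbol written beside each identifier in the authors' table: 147 of 70478 genes carried a symbol of gibberellin metabolism, perception or response (101 genes) or of brassinosteroid perception and signalling (46 genes). Symbols are borrowed from resembling genes of other species, and several cotton genes can carry 1 of them, so each gene is given by its identifier and symbol. Upland cotton (Gossypium hirsutum) was grown in the field, and total RNA was taken from the fibres at 9 days post anthesis. There were 3 libraries of wild type (WT) and 5 of plants with an RNA interference construct against the WRKY transcription factor gene GhWRKY16 (RNAi replicates 2 to 6). RNAi replicate 1 had no column of values in the authors' table and was not analysed here. The labels give neither the promoter nor the number of lines, nor the origin of the replicates, and the spread that p-values are based on may therefore be technical.

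Gibberellins are growth hormones made in a chain of oxidations: GA 20-oxidases and GA 3-oxidases make the active forms and GA 2-oxidases inactivate them. The hormone binds the receptor GID1, which then binds the DELLA repressors and sends them to degradation, and GASA genes encode small cysteine-rich peptides, many of which respond to gibberellin. Brassinosteroids are steroid hormones bound at the cell surface by BRI1 together with its partner kinase BAK1, and the signal ends on the transcription factors of the BZR1 family. Both hormones promote the growth of cotton fibres in cultured ovules.

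Expression was given as FPKM, fragments scaled by gene length and library depth, which allows levels to be set side by side between genes. Read counts were not used here. Relative depth, derived from the spacing of low values, lay between 1 and 2.19 times that of WT replicate 1 in 7 libraries and at 0.366 in RNAi replicate 4. The silenced gene was not identified by name, since 0 of 52552 symbols read WRKY16, so the labels were not checked against it. The 180 genes of the fibre marker list (expansins, fasciclin-like proteins, tubulins, sucrose synthases) summed to 32190 to 39090 FPKM in WT and 33840 to 40350 in RNAi, with 38 at 0 throughout. The 55 green-tissue genes summed to 21.9 to 37.8 FPKM in WT and 35.3 to 59.3 in RNAi. Of these, 11 were at 0 throughout, CAB1 among them, and the highest single value was 12.8 FPKM, for PSBR. The 20 seed storage and embryo genes summed to at most 1.72 FPKM in any library, with 10 at 0 throughout, LEGA and LEGB among them. The 34 genes of the inner seed coat and ovule list summed to 454 to 513 FPKM in WT and 447 to 704 in RNAi, with 5 at 0 throughout. The highest single values were 314 FPKM for BAN, 97.0 for MYB5, 81.6 for LAR and 31.8 for TTG1. Those of TT1, TT16, TT10 and TT2 were 0.121, 1.06, 2.87 and 3.63 FPKM. The part of these markers in the results below was not tested. In bulk RNA, fewer cells of a type and less RNA per cell cannot be told apart.

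Most gibberellin genes were at or near 0 in these fibres, while 24 of 46 brassinosteroid genes were expressed enough to be tested. Of the 101 gibberellin members, 39 were listed at 0 in all 8 libraries, 40 were above 0 but under the filter of at least 1 FPKM in at least 3 libraries, and 22 were tested. Of the 46 brassinosteroid members, 8 were listed at 0 throughout, 14 were under the filter and 24 were tested. Among all 70478 genes, 22.6% were listed at 0 and 48.3% were tested. Under the filter, the highest single value was 2.28 FPKM, for Gh_D03G0239 (GASA7) in RNAi replicate 6.

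**Figure D1:**
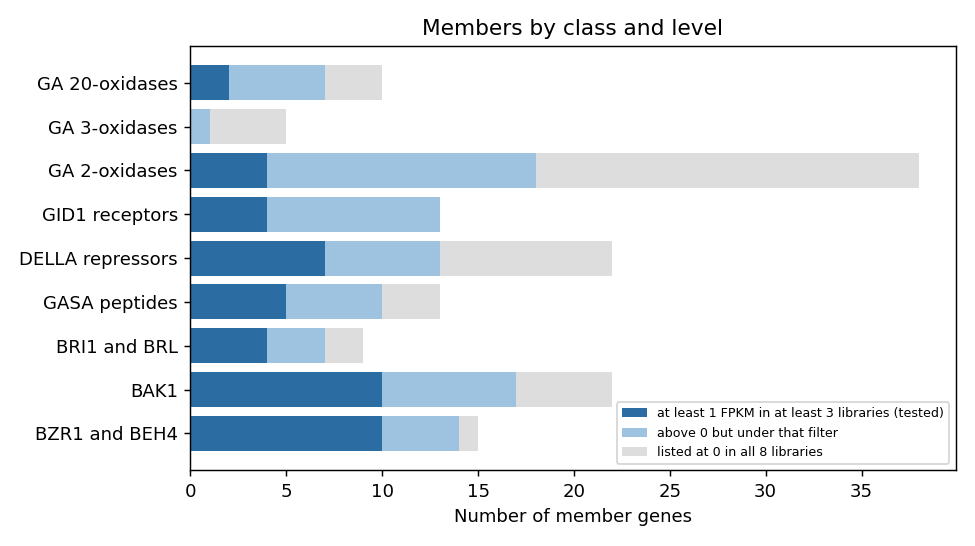
Number of member genes in each class (horizontal axis), split into genes tested, genes above 0 but under the filter, and genes listed at 0 in all 8 libraries. Of the 38 GA 2-oxidases 4 were tested and 20 were listed at 0, whereas 10 of the 15 BZR1 and BEH4 genes were tested.

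No member passed the test between RNAi and WT. With limma on log2(FPKM + 1) over 34051 genes and a Benjamini-Hochberg adjusted p under 0.05, 0 of the 22 gibberellin and 0 of the 24 brassinosteroid members were called, against 0.167% of all tested genes (27 genes or 0.0793% higher and 30 genes or 0.0881% lower in RNAi). At an unadjusted p under 0.05 there were 3 of the 46 members (6.52%), against 5.86% of all tested genes. They were 1 gibberellin gene that stood higher in RNAi (background 2.44% higher), and 1 gibberellin and 1 brassinosteroid gene that stood lower (background 3.42% lower). WT and RNAi libraries did not overlap in 1 member (2.17%), which stood lower in RNAi, against 4.07% of all tested genes (2.35% lower). The unadjusted share was 9.09% in the gibberellin members (2 of 22) and 4.17% in the brassinosteroid members (1 of 24), where 1 gene more or less moves the share past the background. The log2 fold change (RNAi minus WT) was positive in 15 and negative in 7 gibberellin members, with a median of 0.12, or 0.037 without WT replicate 3. The sign was positive in 11 and negative in 13 brassinosteroid members, with a median of -0.03. Over all tested genes 46.4% were positive and the median was -0.02.

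The size of difference that could have been missed was larger for the gibberellin genes. On log2(FPKM + 1), the unadjusted 95% interval of the difference lay within 1, in both directions, for 24 of 24 tested brassinosteroid members. It did so for 14 of 22 gibberellin members and for 88.4% of all tested genes. This scale shrinks differences of genes near 1 FPKM, so the bound does not carry over to their FPKM. Gh_D04G1502 (BAK1) had a log2 fold change of 0.21 ± 0.19 (SE) here and 0.34 ± 0.36 with a pseudocount of 0.1. The residual SD between libraries of a group, on the log2(FPKM + 1) scale, had a median of 0.39 in the gibberellin members, 0.22 in the brassinosteroid members and 0.24 in all tested genes. The mean level, on the same scale, also differed, with medians of 1.74, 2.67 and 2.81. A missed threshold does not show that a gene was alike in both genotypes.

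**Figure D2:**
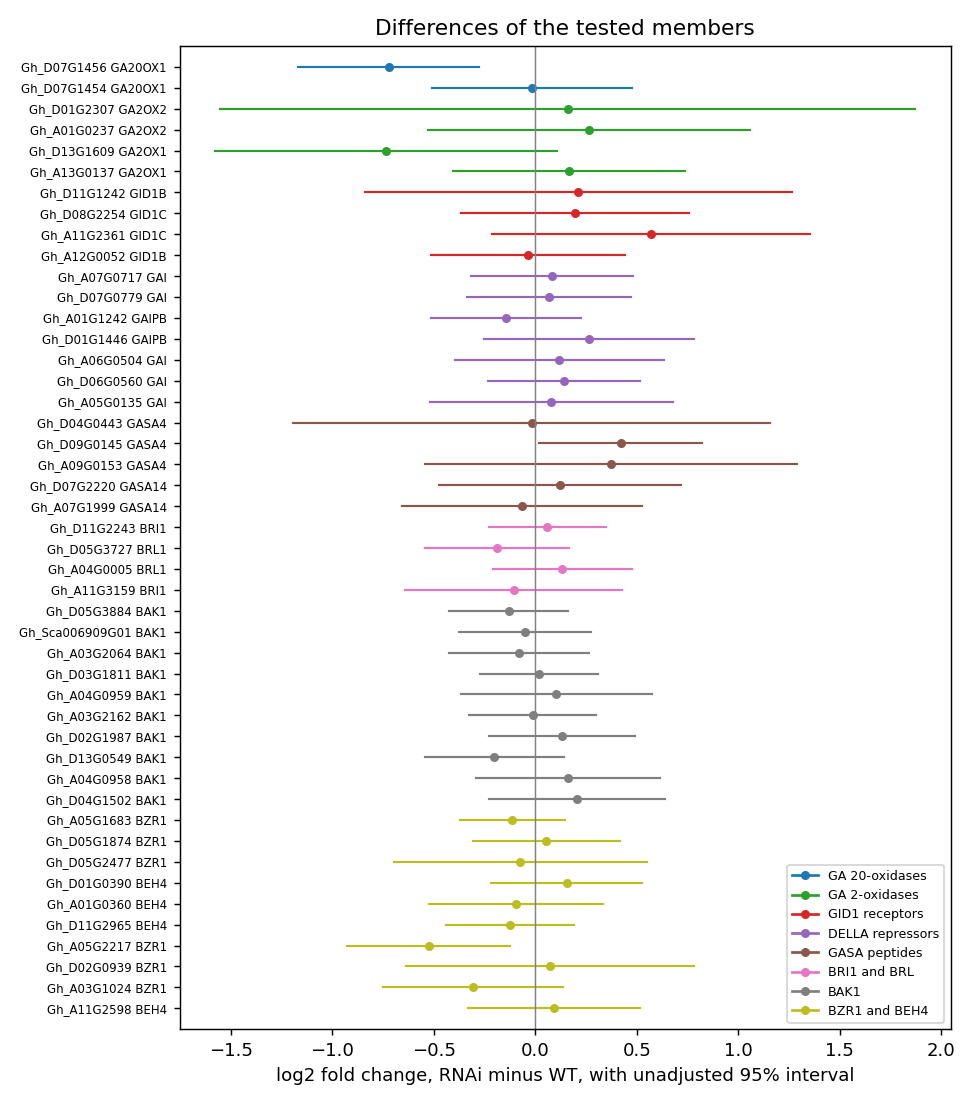
Log2 fold change (RNAi minus WT, on log2(FPKM + 1), horizontal axis) of each of the 46 tested members, with its unadjusted 95% interval from limma and colours for the classes. The intervals of Gh_D07G1456 (GA20OX1) and Gh_A05G2217 (BZR1) lay below 0, that of Gh_D09G0145 (GASA4) above 0, and that of Gh_D01G2307 (GA2OX2) was the widest, from -1.55 to 1.87.

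GA 20-oxidases make the precursors of active gibberellin, and 2 of 10 were tested, both on chromosome D07, as written in the identifiers, with 1 number between theirs. Gh_D07G1456 (GA20OX1) had 2.22, 3.13 and 4.23 FPKM in WT replicates 1 to 3 and 1.07, 2.05, 1.65, 1.60 and 1.21 FPKM in RNAi replicates 2 to 6. Every RNAi library lay below every WT library, and it was the 1 member whose groups did not overlap. Its log2 fold change was -0.72 ± 0.20 (SE; 95% interval -1.17 to -0.28), with an unadjusted limma p of 0.00489 and an adjusted p of 0.538. Nearby, Gh_D07G1454 (GA20OX1) had 0.975, 1.60 and 1.65 FPKM in WT and 1.64, 1.48, 0.592, 1.98 and 1.36 in RNAi, with RNAi replicate 4 lowest and the groups mixed. Here the log2 fold change was -0.02 ± 0.22 (limma adjusted p = 0.991). These genes held between 54.2% and 95.1% of the summed 20-oxidase level in a library. That sum was 5.01 ± 1.47 FPKM (SD, n = 3) in WT against 3.83 ± 0.615 (SD, n = 5) in RNAi, and class sums and means below are written the same way. The A07 genes of the same symbol, Gh_A07G1345 and Gh_A07G1346, stayed at 0.399 FPKM or less.

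GA 3-oxidases, which make the final active form, were barely detected. Of 5 genes, 4 were listed at 0 in every library. The fifth, Gh_D11G0214 (GA3OX1), was at 0 in WT and in RNAi replicates 2 and 6, at 0.044 and 0.0369 FPKM in RNAi replicates 3 and 5, and at 0.221 in the shallow RNAi replicate 4. None was tested, and other genes of that function under other symbols were not searched for.

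GA 2-oxidases formed the largest class, and 4 of 38 were tested. None of the 14 genes named GA2OX8, in Arabidopsis an enzyme that acts on the earlier gibberellins with one more carbon atom, was tested, and 9 were listed at 0 throughout. The class sum was 10.4 ± 3.22 FPKM in WT and 11.6 ± 5.19 in RNAi, carried by GA2OX1 and GA2OX2 genes. Gh_D01G2307 (GA2OX2) had 2.88, 3.18 and 0.753 FPKM in WT and 7.51, 5.41, 0, 6.39 and 0.144 in RNAi. The RNAi libraries fell apart into 3 above every WT library and 2 below them. The log2 fold change was 0.16 ± 0.77 (95% interval -1.55 to 1.87; limma adjusted p = 0.976). With a pseudocount of 0.1 in place of 1 its sign turned, to -0.47, and with a library left out the value ran from -0.24 (without WT replicate 3) to 0.60 (without RNAi replicate 4). Gh_A01G0237 (GA2OX2) had 2.03, 2.35 and 3.18 FPKM in WT and 5.50, 3.90, 1.11, 5.16 and 2.12 in RNAi, again with replicates 2, 3 and 5 above WT and replicate 4 below. For this gene the log2 fold change was 0.26 ± 0.35 (limma adjusted p = 0.921).

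A GA2OX1 gene had the most negative difference of all members, through 1 WT library. Gh_D13G1609 (GA2OX1) had 2.04, 1.55 and 7.26 FPKM in WT and 0.873, 0.769, 2.35, 1.47 and 1.90 in RNAi, so that WT replicate 3 alone stood apart and the groups overlapped. Its log2 fold change was -0.74 ± 0.38 (limma adjusted p = 0.864), and without WT replicate 3 it was -0.22.

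**Figure D3:**
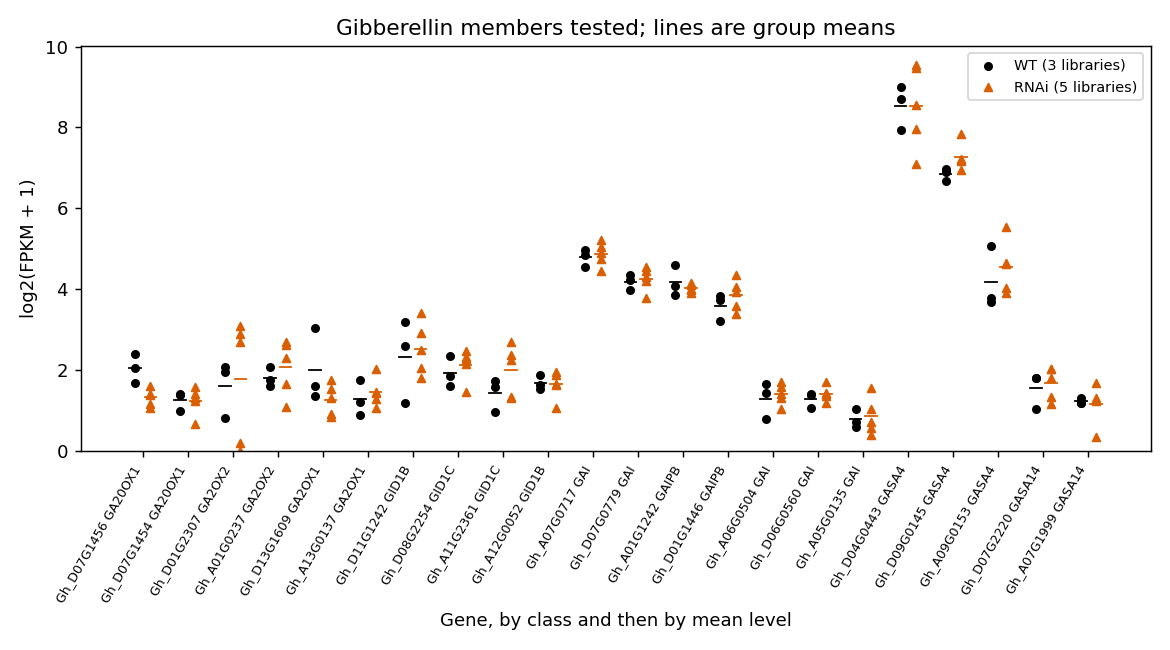
log2(FPKM + 1) (vertical axis) of the 22 tested gibberellin members, 1 point per library, black circles for the 3 WT and orange triangles for the 5 RNAi libraries, with lines at the group means. Gh_D04G0443 and Gh_D09G0145 (GASA4) stand highest and the RNAi points of Gh_D01G2307 (GA2OX2) lie in separate places, near 0 and at 5.41 FPKM or more.

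All 13 GID1 receptor genes were above 0 in at least 1 library, and 4 were tested, all at low levels. Gh_D11G1242 (GID1B), the highest, had 4.99, 8.10 and 1.26 FPKM in WT and 9.56, 6.51, 2.48, 4.59 and 3.13 in RNAi, a wide spread in both genotypes. Between genotypes the log2 fold change was 0.21 ± 0.47 (limma adjusted p = 0.954). Gh_D08G2254 (GID1C) had 2.57, 2.06 and 4.10 FPKM in WT and 1.74, 3.96, 4.55, 3.42 and 3.81 in RNAi, with RNAi replicate 2 the lowest library of all (limma adjusted p = 0.919). Gh_A11G2361 (GID1C) had 1.97, 2.32 and 0.930 FPKM in WT and 4.15, 1.53, 3.72, 1.45 and 5.50 in RNAi. The RNAi values were split, with 3 above and 2 inside the WT range, and the log2 fold change was 0.57 ± 0.35 (limma adjusted p = 0.877), or 0.34 without WT replicate 3. The receptor sum was 13.2 ± 2.35 FPKM in WT and 15.7 ± 2.98 in RNAi.

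The DELLA repressors were carried by 4 genes, which held 92.6% to 96.1% of the class sum in every library. Of 22 DELLA genes 7 were tested, 9 were listed at 0 throughout, and none of the 5 genes named RGL1 or RGL2 was tested. Gh_A07G0717 (GAI) had 27.9, 30.3 and 22.4 FPKM in WT and 28.6, 32.0, 36.4, 25.9 and 20.9 in RNAi. Gh_D07G0779 (GAI) had 17.8, 19.3 and 14.8 FPKM in WT and 20.9, 18.6, 22.3, 12.6 and 17.4 in RNAi. The genotypes overlapped in both, with log2 fold changes of 0.08 ± 0.18 and 0.07 ± 0.18 (limma adjusted p = 0.952 and 0.963), and both turned slightly negative with array weights. Gh_A01G1242 (GAIPB, named after a pumpkin protein) averaged 17.4 ± 5.01 FPKM in WT and 15.3 ± 1.14 in RNAi, and Gh_D01G1446 (GAIPB) averaged 11.2 ± 2.64 and 13.9 ± 3.89. Their log2 fold changes were -0.14 ± 0.16 and 0.27 ± 0.23 (limma adjusted p = 0.906 and 0.892), and without WT replicate 3 they were -0.31 and 0.075. The DELLA sum was 76.6 ± 13.9 FPKM in WT and 80.9 ± 13.0 in RNAi. For all 7 tested DELLA genes the 95% interval stayed within 1 on log2(FPKM + 1). That scale understates fold changes of low genes such as Gh_A05G0135 (GAI), at 0.308 to 1.95 FPKM.

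Both most abundant gibberellin members were GASA4 genes, and the highest of them varied severalfold between libraries of the same genotype. Gh_D04G0443 (GASA4) had 413, 244 and 509 FPKM in WT and 250, 135, 744, 374 and 711 in RNAi. WT lay inside the RNAi range, and the log2 fold change was -0.02 ± 0.53 (95% interval -1.19 to 1.16; limma adjusted p = 0.996). Gh_D09G0145 (GASA4) had 119, 101 and 124 FPKM in WT and 147, 142, 227, 123 and 145 in RNAi. All RNAi libraries but replicate 5 lay above WT, and replicate 5 stood just under the highest WT library. Its log2 fold change was 0.42 ± 0.18, with an unadjusted limma p of 0.0426 and an adjusted p of 0.840, and without RNAi replicate 4 it was 0.28. Gh_A09G0153 (GASA4) had 12.7, 11.9 and 32.5 FPKM in WT and 24.2, 13.8, 45.5, 15.4 and 23.8 in RNAi, with WT replicate 3 and RNAi replicate 4 highest (limma adjusted p = 0.904). Together the D04 and D09 genes held 93.2% to 96.9% of the GASA sum, while none of the 3 GASA10, 2 GASA3 and 2 GASA7 genes was tested.

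The brassinosteroid receptors overlapped between the genotypes in all 4 tested genes, as most genes did: 4.07% of all tested genes did not overlap. Gh_D11G2243 (BRI1, the main receptor kinase) had 13.1, 14.4 and 14.9 FPKM in WT and 16.9, 15.2, 15.6, 11.9 and 14.6 in RNAi. The genotypes overlapped, and the log2 fold change was 0.06 ± 0.13 (95% interval -0.23 to 0.35; limma adjusted p = 0.952). Gh_D05G3727 (BRL1, a relative of BRI1 that in Arabidopsis also binds brassinosteroid) averaged 5.63 ± 0.999 FPKM in WT against 4.82 ± 0.737 in RNAi (limma adjusted p = 0.892). Gh_A04G0005 (BRL1) averaged 4.52 ± 0.929 and 5.02 ± 0.600 (limma adjusted p = 0.906). The other tested BRI1 gene, Gh_A11G3159, had 3.30, 3.32 and 3.71 FPKM in WT and 5.24, 3.93, 1.91, 2.32 and 3.002 in RNAi, with RNAi libraries on both sides of WT (limma adjusted p = 0.954). The 3 BRL2 genes, named after a relative that in Arabidopsis acts in vein patterning, stayed at 0.314 FPKM or less. The receptor sum was 28.0 ± 0.998 FPKM in WT and 28.3 ± 2.80 in RNAi.

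The partner kinase BAK1 was the most abundant brassinosteroid symbol, with 22 genes, 10 of them tested. Gh_D05G3884 (BAK1) had 93.4, 82.3 and 118 FPKM in WT and 80.1, 88.8, 84.3, 91.1 and 98.7 in RNAi. Gh_Sca006909G01 (BAK1), on an unplaced scaffold, had 71.5, 65.2 and 91.9 FPKM in WT and 64.4, 79.9, 63.0, 84.4 and 74.1 in RNAi. WT replicate 3 was the highest library for both, and the other WT libraries lay within the RNAi range. Their log2 fold changes were -0.13 ± 0.13 and -0.05 ± 0.15 (limma adjusted p = 0.900 and 0.963). With Gh_A03G2064 and Gh_D03G1811, also BAK1, these genes held 89.7% to 93.7% of the BAK1 sum, which was 304 ± 52.5 FPKM in WT and 288 ± 23.0 in RNAi. How reads that fit several such copies were counted is not given in the sources used here, so the split between copies is uncertain. The low genes of smallest p, Gh_D13G0549 and Gh_D04G1502 (BAK1), did not pass either (limma adjusted p = 0.883 and 0.896). Gh_D13G0549 averaged 4.40 ± 0.841 and 3.68 ± 0.489 FPKM, and Gh_D04G1502 averaged 0.889 ± 0.129 and 1.21 ± 0.439. Gh_D04G1502 reached 1 FPKM only in RNAi libraries. It met the filter only through the group where it stood higher, so its difference was partly set by the filter.

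At the end of the pathway, all 6 BZR1 genes and 4 of 9 BEH4 genes, a relative of BZR1, were tested. Gh_A05G1683 (BZR1) had 45.4, 53.7 and 61.3 FPKM in WT and 50.4, 48.6, 51.5, 50.0 and 44.8 in RNAi, and had the smallest residual SD of all members, 0.14 on the log2 scale. The log2 fold change was -0.11 ± 0.12 (limma adjusted p = 0.901). The mean of Gh_D05G1874 (BZR1) was 17.7 ± 2.79 FPKM in WT against 18.4 ± 2.94 in RNAi (limma adjusted p = 0.966). Gh_A05G2217 (BZR1) had 3.73, 4.74 and 6.23 FPKM in WT and 3.16, 3.16, 2.49, 3.93 and 2.61 in RNAi. All RNAi libraries but replicate 5 lay below WT, and WT replicate 3 was highest. Its log2 fold change was -0.53 ± 0.18, with an unadjusted limma p of 0.0156 and an adjusted p of 0.755. Gh_A03G1024 (BZR1) averaged 3.61 ± 0.830 and 2.76 ± 0.810 FPKM (limma adjusted p = 0.877). The class sum was 111 ± 19.4 FPKM in WT and 105 ± 8.31 in RNAi. Without WT replicate 3 the median log2 fold change of the brassinosteroid members turned from -0.03 to 0.05. The median over all tested genes turned as well, from -0.02 to 0.01.

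**Figure D4:**
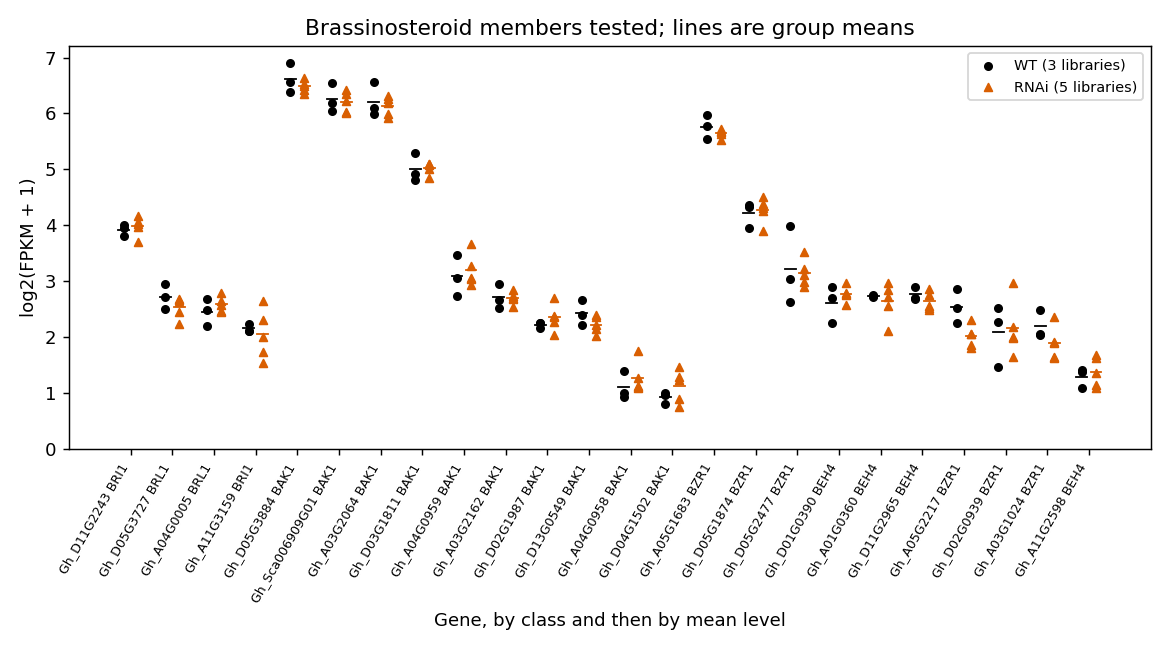
log2(FPKM + 1) (vertical axis) of the 24 tested brassinosteroid members, 1 point per library, black circles for WT (3 libraries) and orange triangles for RNAi (5 libraries), with lines at the group means. The 3 highest BAK1 genes and Gh_A05G1683 (BZR1) lead their classes. The points of the 2 genotypes overlap for every gene shown, where 4.07% of all tested genes did not overlap.

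Upland cotton carries an A and a D subgenome, and the members were compared between them. Genes of 1 symbol on the A and D chromosomes of 1 number, paired in the order of their identifiers, gave 37 pairs, which need not all be true counterparts. Both genes were tested in 10 pairs. The D gene was higher in all 8 libraries in 3 of them, the A gene in 2, and the other 5 were mixed. The D share of the pair's level in WT was 86.4% ± 6.24 for the GASA4 genes on A09 and D09, 80.0% ± 3.09 for the BEH4 genes on A11 and D11, and 62.9% ± 6.63 for Gh_A05G2217 and Gh_D05G2477 (BZR1). The A gene was higher for Gh_A05G1683 and Gh_D05G1874 (BZR1), with a D share of 24.9% ± 1.54 in WT and 27.3% ± 3.51 in RNAi, and for the GAI pair on A07 and D07, with 39.2% ± 0.477 and 39.0% ± 4.90. In 6 further pairs 1 gene averaged over 1 FPKM and the other was under the filter or listed at 0. It was the D gene for both GA20OX1 pairs, for GID1B on D11, for GID1C on D08 and for BAK1 on D05, where Gh_A05G2681 was listed at 0 and Gh_D05G3884 averaged 92.1 FPKM. It was the A gene for GID1B on A12, where Gh_A12G0052 averaged 2.19 FPKM and Gh_D12G0066 averaged 0.409. How reads shared between the copies were counted is not given, so these shares are uncertain.

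Some members of 1 symbol lay side by side, judged by identifier numbers at most 2 apart. There were 10 such runs with 22 genes, most of them under the filter or listed at 0, and some runs held genes of unlike level. In the run of 4 BAK1 genes on D13, Gh_D13G0549 averaged 3.95 FPKM over all libraries, and the others 0.165, 0.0227 and 0.401. On A04, Gh_A04G0959 (BAK1) averaged 8.05 FPKM and its neighbour Gh_A04G0958 averaged 1.34. Other runs held genes of like, low level, such as the GID1C genes on D13 at 0.115 and 0.114 FPKM. The GID1C runs on A13 and D13 and the GA2OX2 run on D09 held no tested gene, and both GASA3 genes on D05 were listed at 0.

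Other genes of the pathways, from lists of symbols, did not pass either. Of 91 further gibberellin genes, 24 were listed at 0 throughout and 35 were tested, with 0 past limma's threshold and 0 at an unadjusted p under 0.05 (13 positive, 22 negative, median log2 fold change -0.06). Of 77 further brassinosteroid genes, 46 were tested, with 0 past the threshold and 5 at an unadjusted p under 0.05 (10.9%), against 5.86% of all tested genes. These 5, named after their values were seen, had adjusted p values from 0.839 to 0.844. Gh_D13G0255 (DIM, a sterol reductase of brassinosteroid synthesis) averaged 60.3 ± 3.67 FPKM in WT and 80.5 ± 15.0 in RNAi. Gh_A12G0175 (SERK2, in Arabidopsis a kinase related to BAK1) averaged 0.660 ± 0.270 and 1.87 ± 1.16 FPKM, and Gh_A09G0946 (BSL2, of the BSU1 phosphatase family) averaged 0.975 ± 0.219 and 1.55 ± 0.172. Of the 7 tested genes named BIM2, in Arabidopsis a partner of the BZR1 family, 2 were among these 5. Gh_D13G0896 averaged 3.50 ± 1.26 and 2.10 ± 0.517 FPKM, and Gh_D12G1583 averaged 1.34 ± 0.324 and 0.828 ± 0.0957. Gh_A12G0175 reached 1 FPKM only in RNAi libraries and Gh_D12G1583 only in WT libraries. Each met the filter only through the group where it stood higher, so its difference was partly set by the filter. The 10.9% counts both. Gh_A07G1552 (BIM2) had a log2 fold change of 0.07, and the sum of the 8 BIM2 genes overlapped, at 40.6 to 51.7 FPKM in WT and 39.7 to 44.9 in RNAi.

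The steps of brassinosteroid synthesis stood at very different levels in both genotypes. The reductases named DIM and DET2 were abundant. The 2 DIM genes summed to 131 to 156 FPKM in WT and 136 to 215 in RNAi. The 4 DET2 genes, a steroid reductase, summed to 161 to 170 in WT and 130 to 221 in RNAi. The oxidases named CYP85 and CYP90 were scarcer. The 2 genes named CYP90B1, in Arabidopsis the enzyme DWF4 held to limit the rate of the pathway, summed to 0.152 to 0.220 FPKM in WT and 0.162 to 0.723 in RNAi. The 1 CYP85A1 gene, whose enzyme makes castasterone, was listed at 0 in 7 libraries and at 0.0463 FPKM in RNAi replicate 5. The 4 CYP90A1 genes summed to 6.90 to 11.5 FPKM in WT and 6.80 to 8.66 in RNAi. The kinase that holds BZR1 back, BIN2, is named ASK7 in the table, and its 6 genes, all tested, summed to 169 to 192 FPKM in WT and 171 to 190 in RNAi.

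Some genes of both pathways, but not all genes of their symbols, had the same 3 libraries at the high or the low end: WT replicate 3, RNAi replicate 4 and RNAi replicate 6. These genes were chosen after their values were seen, and no test was made. How many of all tested genes had these libraries at an end was not counted. The order is therefore not shown to be particular to these pathways. Gh_D04G0443 (GASA4), given above, was highest in RNAi replicate 4, RNAi replicate 6 and WT replicate 3. Gh_Sca030829G01 (KAO1, an oxidase early in gibberellin synthesis) had 7.25, 1.03 and 10.8 FPKM in WT and 4.04, 1.78, 15.8, 8.44 and 13.4 in RNAi, with the same 3 libraries highest. The same 3 were highest for Gh_A08G1431 (KAO2), at 13.0 FPKM in WT replicate 3, 15.5 in RNAi replicate 4 and 12.4 in RNAi replicate 6, against 5.19 to 8.85 in the others. They were also highest for Gh_A06G0128 (KO, the kaurene oxidase before it), at 36.1 to 37.8 FPKM against 18.2 to 29.3.

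Other genes were lowest in those 3 libraries. Gh_D01G2307 (GA2OX2) was at 0 to 0.753 FPKM in them and at 2.88 to 7.51 in the other 5, and Gh_D11G1242 (GID1B) at 1.26 to 3.13 against 4.59 to 9.56. Of the genes named CYP734A1, in Arabidopsis an enzyme that inactivates brassinosteroids, Gh_D05G0184 had 24.9, 25.6 and 9.89 FPKM in WT and 51.0, 39.3, 14.8, 39.1 and 17.6 in RNAi. Gh_A05G0122 (CYP734A1) had 34.7, 41.5 and 17.6 FPKM in WT and 54.4, 49.8, 29.3, 41.7 and 30.3 in RNAi. In neither gene did the genotypes separate (limma adjusted p = 0.880 for both), and in both the same 3 libraries were lowest. Other genes of these symbols did not follow that order. Gh_A06G1918 (CYP734A1) was highest in RNAi replicate 4 and WT replicate 3, at 12.3 and 11.97 FPKM, and Gh_D06G1730 (KAO1) was lowest in RNAi replicates 6 and 4, at 0.179 and 0.408 FPKM. Among the WT libraries, Gh_A01G0237 (GA2OX2) was highest in replicate 3. The relative depth of these libraries was 1.38, 0.366 and 1.11, inside and below the range of the others, and their fibre marker sums were 32189, 33843 and 38275 FPKM against 36469 to 40349. The part of either in these values was not tested.

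**Figure D5:**
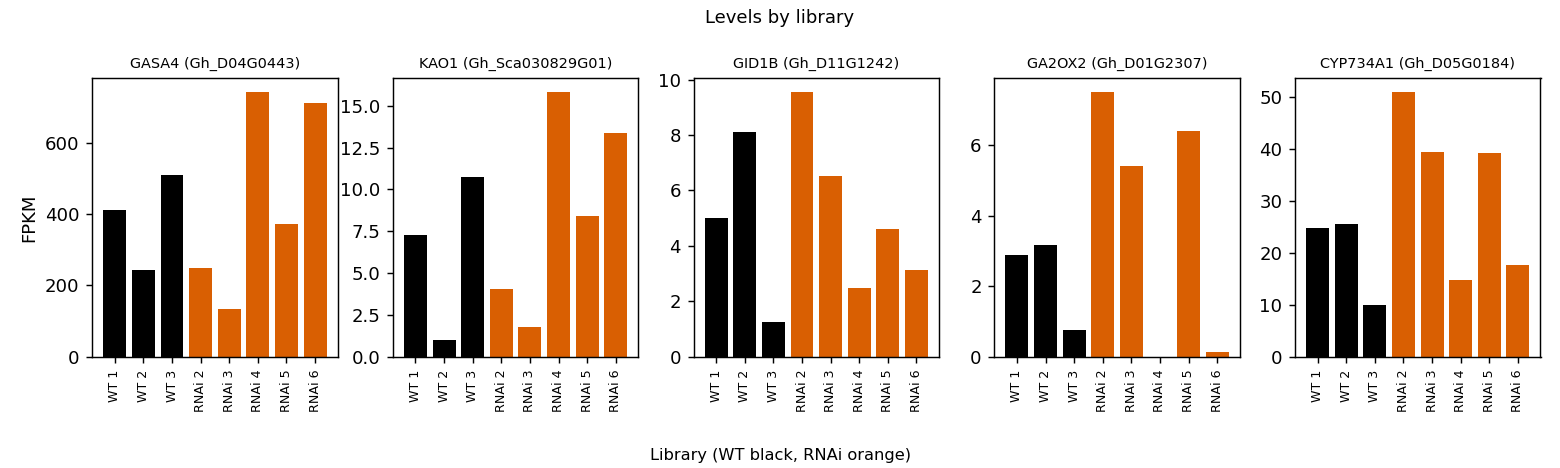
FPKM (vertical axis, from 0, 1 scale per panel) of 5 genes in each library (horizontal axis), WT in black and RNAi in orange, 1 bar per library. WT replicate 3, RNAi replicate 4 and RNAi replicate 6 are the 3 highest bars for GASA4 and KAO1 and the 3 lowest for GID1B, GA2OX2 and CYP734A1. The genes were chosen after their values were seen.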

How the data were processed

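RNA sequencing of cotton fibres was given as 1 table of FPKM per gene, computed by the authors, with 1 column for each of 8 libraries. The submitters' processing notes list the tools FastQC, HISAT2 and DESeq 1.10.1 but not what each did. Build, annotation, counter and handling of multi-mapping reads: not given in the sources used here. The labels list 9 samples, and the 8 columns were matched to them by group and replicate number, which left RNAi replicate 1 without values. No identifier matched the reference table (0 matches), so no coordinates or sequences are given.

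Relative depth came from ratios of values under 0.5 FPKM between libraries. Between 49.5% and 70.3% of these lay within 0.01 (log2) of ratios of up to 4 reads. The absolute depth is unknown, and counting intervals are left out.

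After a filter (1 FPKM or more in 3 or more libraries) 34051 genes remained. On log2(FPKM + 1), limma 3.58.1 (R 4.3.3) was run (eBayes with trend, two-sided, Benjamini-Hochberg over all tested genes, threshold 0.05). Fold changes on this scale understate those of low genes. The fit was also run on simulated data, where only genes of higher mean level were changed. Recovery of low genes was not examined there. Named members were the 2 highest and the 2 of smallest p in each class (26 genes), besides any past the threshold. CAB39 and CABIN1 (4 genes), which are not green-tissue genes, were left out of that list. The members and lists were chosen with earlier results of these data known. Alternatives were median-ratio scaling, other pseudocounts and filters, a replicate block, array weights, no trend and each library left out.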

Additional observations from a re-analysis of the deposited data

Results flagged for a closer look

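In 2 of the 37 gene levels and class sums examined, 1 of the 5 RNAi libraries stood far from the other 4, and chance flags about 1 in 20. Gh_D09G0145 (GASA4) was at 226.7 FPKM in RNAi replicate 4 and at 123 to 147 in the other RNAi libraries. The summed FPKM of the GA 3-oxidases was 0.2207 in RNAi replicate 4 and 0 to 0.044 in the others. That sum was at 0 in RNAi replicates 2 and 6. The rate of 1 in 20 assumes normally distributed values and need not hold for it. RNAi replicate 4 was the shallowest library, with a relative depth of 0.366. The GA 3-oxidase sum came from 1 gene, Gh_D11G0214, which was at 0.044 FPKM in RNAi replicate 3 and at 0.0369 in RNAi replicate 5. The relative depths of those libraries were 1.83 and 2.19, so the value above 0 was smaller where the library was deeper. The part of depth in these values was not tested.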

How the results depend on the processing

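In all 16 alternatives, 0 gibberellin and 0 brassinosteroid members passed the threshold. The count over all genes, 57 in the fit reported, was 35 with a pseudocount of 0.01, 36 with a filter at 5 FPKM, 88 with array weights, 313 with the replicate block and 21 to 60 with a library left out; the cause was not tested. It was 35 without WT replicate 1, 22 without WT replicate 2, 21 without WT replicate 3 and 34 without RNAi replicate 5. Gibberellin members at an unadjusted p under 0.05 (2) numbered 4 with no filter or with the replicate block, 1 with a filter at 5 FPKM or no trend, and 1 to 2 with a library left out (1 without WT replicate 1, WT replicate 3, RNAi replicate 2 or RNAi replicate 6). Brassinosteroid members (1) numbered 2 with no filter and 0 with a filter at 5 FPKM. With a library left out they numbered 0 to 2 (0 without WT replicate 3, 2 without RNAi replicate 4). Of all tested genes, 5.86% were at that p in the fit reported, 5.47% with no filter and 16% with the replicate block. The share was 5.43% with a filter at 5 FPKM and 3.07% to 7.52% with a library left out. With no filter, 62 gibberellin and 38 brassinosteroid members were tested. With a library left out, the median log2 fold change ranged from -0.10 to 0.050 for the brassinosteroid and from 0.037 (without WT replicate 3) to 0.14 for the gibberellin members, and with array weights the latter was 0.012. Of the 26 genes named, 22 moved by over 1.5 times with 1 library left out, and 14 kept their sign in every alternative run. Signs turned for Gh_D01G2307 with pseudocounts of 0.1 (-0.47) and 0.01 (-1.20). They turned with the replicate block for Gh_D08G2254 (-0.10) and Gh_A09G0153 (-0.11). They turned with array weights for Gh_D07G1454 (0.087), Gh_D11G1242 (-0.056), Gh_A07G0717 (-0.00125), Gh_D07G0779 (-0.091) and Gh_Sca006909G01 (0.11). With a library left out, log2 fold changes ranged from -0.31 to 0.064 for Gh_A01G1242, -0.037 to 0.19 for Gh_A07G0717, -0.24 to 0.60 for Gh_D01G2307, -0.32 to 0.34 for Gh_D04G0443, -0.076 to 0.15 for Gh_D05G1874, -0.25 to 0.012 for Gh_D05G3884, -0.035 to 0.19 for Gh_D07G0779, -0.15 to 0.13 for Gh_D07G1454, -0.36 to 0.65 for Gh_D11G1242 and -0.16 to 0.089 for Gh_Sca006909G01. The range for Gh_D07G1456 was -0.90 to -0.55. The replicate numbers gave 2 shared numbers. The deviations of same-numbered libraries from their group means correlated at 0.35 for number 2 and -0.093 for number 3 across genes. Over all pairs of a WT and an RNAi library these correlations ran from -0.305 to 0.35, so number 2 was at the top of the range. The labels do not say whether same-numbered samples were paired, and the fit reported treated them as unpaired. The block leaves a comparison of 2 WT with 2 RNAi libraries and almost nothing from which to estimate the spread of a gene. In that fit 16% of all tested genes were at an unadjusted limma p under 0.05. Gh_D01G2307 (GA2OX2) had a log2 fold change of 1.45 and an adjusted limma p of 0.0745 in it. That adjusted p was the smallest of any member in any alternative. Depth limits low values most in RNAi replicate 4, and a gene listed at 0 there may be expressed below detection.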
